A study of Mus musculus with 32 samples.

Results

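Voltage-gated sodium, calcium and potassium channels carry the action potential, let calcium into nerve terminals and return the membrane to rest. Each channel is built from a pore-forming subunit, which opens and selects the ion, and in many cases from accessory subunits, which set its gating and its place in the membrane. Potassium channels outside the voltage-gated families (inward rectifiers, 2-pore channels and calcium-activated channels) hold the resting potential, clear potassium through astrocytes and end bursts of firing. The genes of these families were examined in the lumbar spinal cord of SOD1G93A mice, a model of amyotrophic lateral sclerosis in which motor neurons degenerate and altered excitability has long been described.

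Members were protein-coding genes whose symbols begin with Scn, Cacn or Kcn and follow the naming of channel subunits (sodium alpha and beta, calcium alpha1, alpha2delta, beta and gamma, and all numbered potassium families), with a mean of at least 1 CPM, that is, counts scaled to library size, over the 6 cord libraries. Of 133 such symbols in the table of 74021 genes, 106 met this level and 27 did not, of which 1, *Scn10a*, had no count in any library. All 106 members passed the filter on low counts and were among the 17702 genes tested. They comprised 78 pore-forming and 28 accessory subunits. Nearest the limit, *Kcnn4* and *Kcnh3* were inside at means of 1.02 and 1.14 CPM, and *Kcne4* and *Kcnmb1* outside at 0.927 and 0.846 CPM. The values used to choose them were the means over all libraries, and *Cacna1s*, *Kcnh3* and *Kcnn4* reached the limit only through the LAG-3-/- libraries (LAG-3+/+ means of 0.293, 0.823 and 0.945 CPM). The first 2 of these count among the higher calls below and give them no support.

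The libraries came from P140 mice, the late symptomatic stage, with 3 from SOD1G93A/LAG-3+/+ and 3 from SOD1G93A/LAG-3-/- animals (140 days of age). Every animal carried the human SOD1G93A transgene of the B6.Cg-Tg(SOD1*G93A)1Gur/J line, and LAG-3, an inhibitory immune checkpoint receptor, was removed from the germline by the Lag3tm1Doi allele of B6.129S6(Cg)-Lag3tm1Doi/J mice, so it was missing from all cells throughout development. No cord library without the transgene was present, so no value here compares diseased with healthy cord. Total RNA of bulk tissue was sequenced, in which fewer cells of a type and less RNA per cell cannot be told apart. The labels do not name the animals, and p-values measure the spread between these samples.

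Library totals were 19430102 to 26994524 counts. *Lag3* (chromosome 6, 124881320 to 124888765 on the minus strand, GRCm39) was at 74.5, 43.4 and 61.4 CPM in the LAG-3+/+ libraries and at 5.72, 5.60 and 5.50 CPM in the LAG-3-/- libraries. LAG-3-/- replicate 2 stood apart in RNA from outside the cord: 4 Schwann cell markers summed to 1373 CPM and 5 skeletal muscle markers to 975 CPM there, against at most 3.43 and 2.29 CPM in each other library. In 2 of the 6 libraries, LAG-3+/+ replicates 1 and 2, the X- and Y-linked transcripts went against the sex listed by the study: *Xist* was at 218.9 to 556.5 CPM in every LAG-3+/+ library and in LAG-3-/- replicate 1, while 4 Y-linked genes summed to 131 and 120.2 CPM in LAG-3-/- replicates 2 and 3. By these transcripts no male library was in the LAG-3+/+ group, so a sex difference can be told apart from genotype only through LAG-3-/- replicate 1. Neuronal markers were present in all libraries, with 10 of them summing to 5132 to 5858 CPM in LAG-3+/+ and 6096 to 6703 CPM in LAG-3-/- cord (4 called higher and 1 lower).

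Of the 106 members, 35 were lower and 15 higher in LAG-3-/- than in LAG-3+/+ cord (edgeR's quasi-likelihood test, adjusted p under 0.1 over all genes tested, hereafter a call). Among all 17702 genes, 23.9% were called lower and 23.1% higher, so the share of members was above the background for lower calls (33%) and below it for higher calls (14.2%). The ranges of the groups did not overlap in 35 members that were lower and 13 that were higher, against 26.1% and 25.5% of all genes. In either direction, 47.2% of members were called against 47.1% of all genes. Relative to genes of any length, the excess of lower calls lay in the pore-forming subunits, with 31 lower and 9 higher of 78. Among the 28 accessory subunits 4 were lower and 6 higher. The median log2 fold change was -0.18 over the members, -0.24 over the pore-forming and 0.03 over the accessory subunits, beside 0.00 over all genes tested. With the minimum of 1 on the log2 scale that the study used, 5 members were lower (*Kcna1*, *Kcna3*, *Kcnh5*, *Kcnj6* and *Kcnj2*) and 2 higher (*Cacna1s* and *Kcnmb4*), where 3.15% and 4.37% of all genes passed. *Cacna1s* is a member only through LAG-3-/- replicate 2, so *Kcnmb4* is the higher gene that the choice of members did not favour. Without LAG-3+/+ replicate 1 the higher calls numbered 9, beside 3735 of all 17966 genes tested. Without LAG-3-/- replicate 2 they numbered 10 and the lower calls 31, with backgrounds of 18.8% higher and 19.9% lower.

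**Figure D1:**
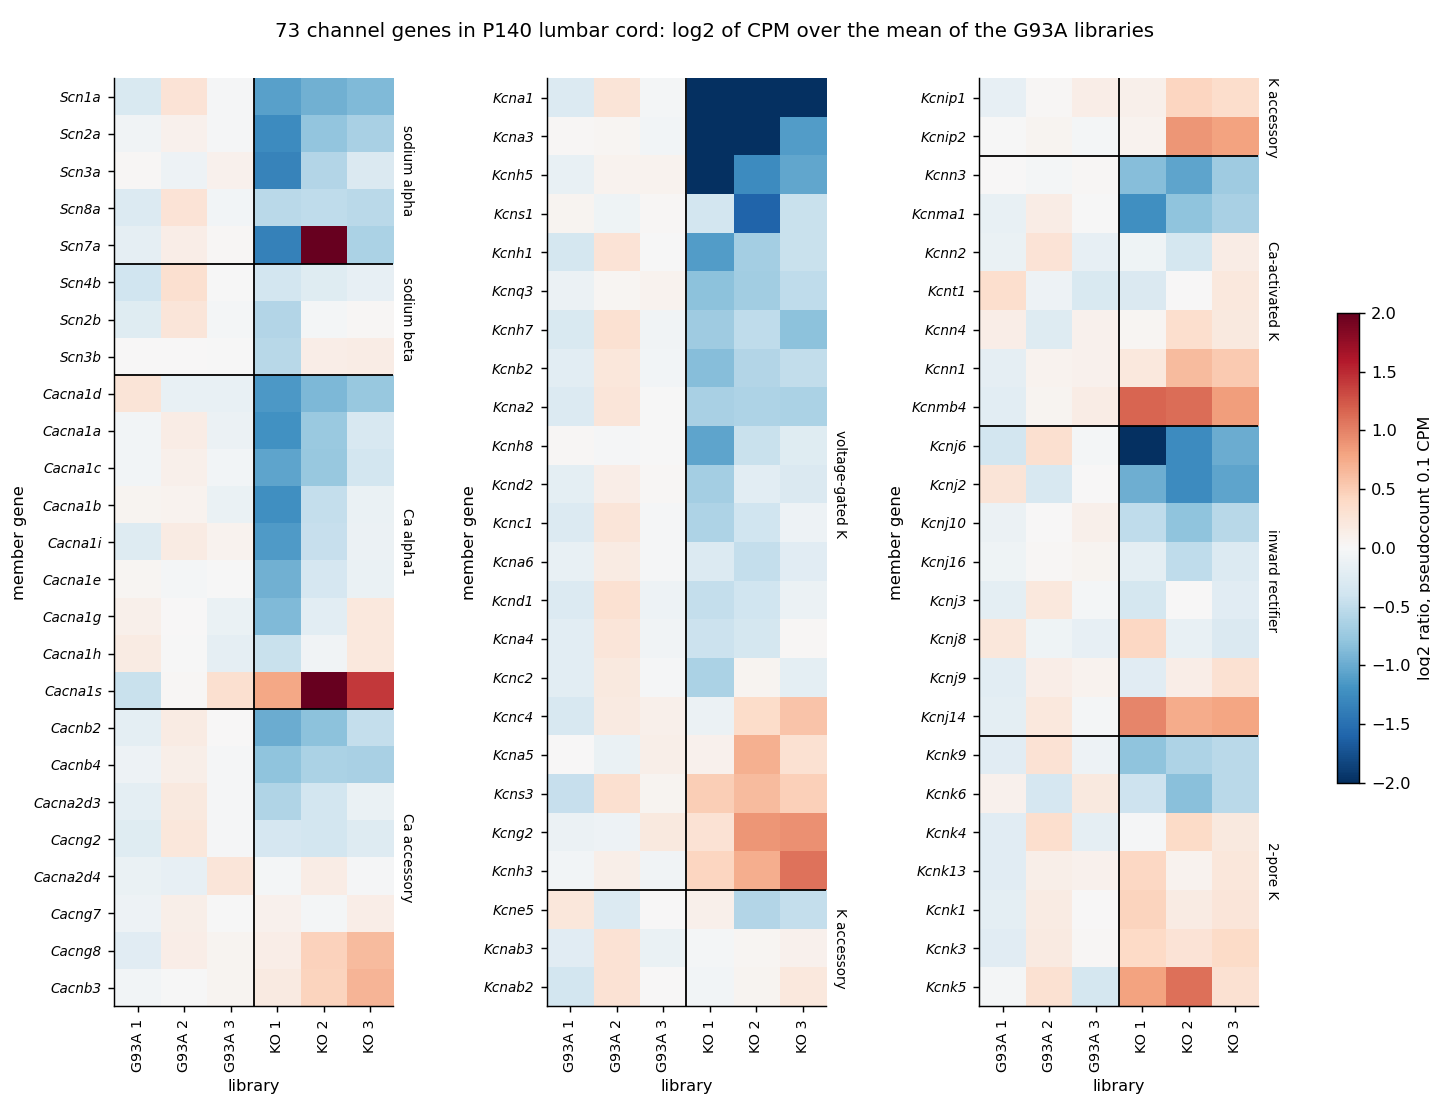
Heat map of the 73 members described in the text (rows, grouped by class of channel and ordered by log2 fold change) in the 6 cord libraries (columns); colour gives the log2 ratio of CPM to the mean of the LAG-3+/+ libraries (named G93A), with a pseudocount of 0.1 CPM and the scale ending at -2 and 2. *Kcna1*, *Kcnh5* and *Kcnj6* are dark blue across the LAG-3-/- libraries (named KO), and *Cacna1s* and *Scn7a* are darkest red in LAG-3-/- replicate 2.

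Transcript length moved with the genotype difference over the whole table. Channel subunits have long messages, with a median canonical transcript of 4.72 kb for the members and 5.17 kb for the pore-forming subunits, against 3.10 kb over all genes tested. Among all genes the median log2 fold change went from 0.45 for transcripts under 2 kb to -0.67 for those of 10 kb or more, of which 79.7% were called lower. In each library the level of a gene relative to its mean was related to length: per doubling of length it rose by 0.12, 0.15 and 0.14 on the log2 scale in the LAG-3+/+ libraries, and the slopes were -0.20, -0.13 and -0.07 in the LAG-3-/- libraries. At the ends of the range the members followed this pattern. Their median was 0.20 in the 7 members under 2 kb and -0.64 in the 8 members of 10 kb or more. All 8 of the latter were called lower. The 14 members of 2 to 3 kb had a median of 0.27. Of the 18 members of 7 to 10 kb 6 were called lower, against 71.8% of all genes of that length. Their median was -0.30, against -0.52 over all genes of that length. Against the median of all genes in the same length bin, 43 members lay below and 63 above, with a median difference of 0.07. Whether the relation with length arose in the tissue, in the RNA or in the libraries was not tested. The labels describe a SMART-seq kit for sorted cells and the study's methods a directional NEBNext kit for cord, and which kit made the cord libraries was not settled here.

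The contrast was therefore also fitted with an offset, a smooth curve on transcript length and GC content drawn for each library. The curve followed each gene's log2 CPM less its mean over the cord libraries of both genotypes, with the most extreme deviations left out. It thus also takes out any genotype difference that follows length or GC content. With the offset 20 members were lower (18.9%, background 13%) and 7 higher (6.6%, background 14.5%), and 25.5% were called in either direction against 27.4% of all genes. Of the 35 lower calls 18 remained and 17 were lost, and of the 15 higher calls 7 remained and 8 were lost. *Kcne5* and *Kcnc1*, which were not among the 35, were called lower with the offset. Corrected ranges did not overlap in 19 lower and 13 higher members, beside 19% and 20.3% of all genes. The medians were -0.01 over the members, -0.03 over the pore-forming and 0.06 over the accessory subunits. Beyond 1 on the log2 scale 5 members were lower (*Kcna3*, *Kcna1*, *Kcnj6*, *Kcnh5* and *Kcnn3*) and none was higher, beside 2.68% and 1.91% of all genes; *Kcnmb4* was at 0.51 in that fit and *Cacna1s* at 3.86 without a call. The size of this shift depended on how length was defined. With the union of a gene's exons in place of its canonical transcript, 29 members were lower and 8 higher, at a median of -0.16. Of all 17702 genes, 3187 were lower and 3369 higher in that fit. The counts with the offset depended on single libraries. Lower calls numbered 11 without LAG-3+/+ replicate 2 (1841 of all 18418 genes tested) and 10 without LAG-3+/+ replicate 3 (1167 of 18120). Higher calls numbered 11 without LAG-3-/- replicate 1 (2047 of 18316). Without LAG-3-/- replicate 2 there were 14 lower and 4 higher calls (background 7.33% and 9.82%). With the summed Y-linked level as a covariate, 39 members were lower and 6 higher (background 18.1% and 17.2%), and with both that covariate and the offset 17 were lower and 2 higher (background 5.1% and 9.59%). In the fit with the covariate the genotype difference rests mainly on LAG-3-/- replicate 1, the LAG-3-/- library without Y-linked transcripts. Of the 35 lower calls 27 remained, and those lost were *Cacng2*, *Kcna6*, *Kcnh7*, *Kcnj10*, *Kcnj16*, *Kcnk6*, *Kcns1* and *Scn8a*. Of the 15 higher calls 5 remained, and those lost were *Cacna1s*, *Cacnb3*, *Cacng8*, *Kcng2*, *Kcnh3*, *Kcnip1*, *Kcnip2*, *Kcnk5*, *Kcnn1* and *Kcns3*. A further 12 members were called lower and 1 higher with the covariate that had no call in the fit without covariate or offset. Some of them were also called in other alternative fits.

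**Figure D2:**
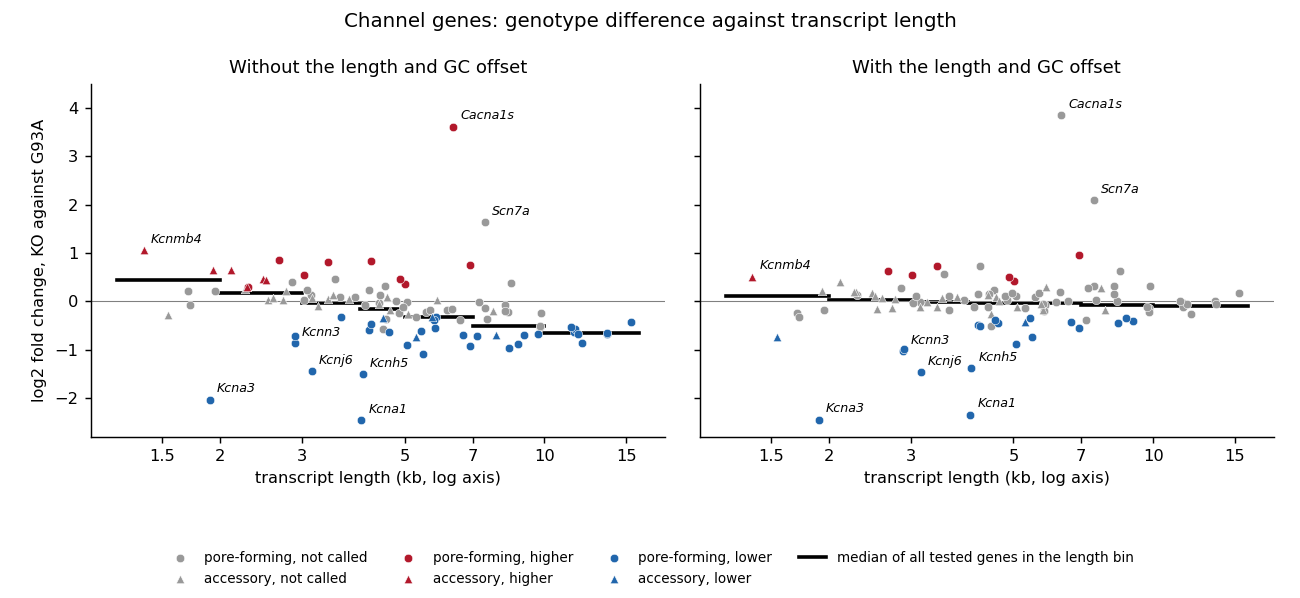
Log2 fold change of each member (y axis) against transcript length in kb (log x axis), without the offset (left) and with it (right); circles are pore-forming and triangles accessory subunits, coloured by call, and black bars are medians of all tested genes in 7 length bins. On the left the bars fall from 0.45 to -0.67 and the 8 longest members are blue; on the right the bars lie between 0.11 and -0.11, and *Kcna1*, *Kcna3*, *Kcnj6* and *Kcnh5* stay more than 1 below zero, joined by *Kcnn3* at -1.03.

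Among the sodium channel alpha subunits, which form the pore for the rising phase of the action potential, 4 of 7 were called lower and none higher, with a class median of -0.53 that was 0.01 with the offset. The median transcript of the class was 8.75 kb. Among all genes of 7 to 10 kb, 71.8% were called lower, at a median of -0.52. *Scn1a*, the most abundant of them per length at 36.9 CPM per kb, is the main sodium channel of fast-spiking inhibitory neurons and is also used by motor neurons. It was at 249.9, 374 and 303.6 CPM in the LAG-3+/+ libraries and at 145, 158 and 168 CPM in the LAG-3-/- libraries, and the groups did not overlap. Its log2 fold change was -0.98 ± 0.15 (SE, edgeR adjusted p = 0.000763) and -0.46 ± 0.14 with the offset (edgeR adjusted p = 0.0393). *Scn2a*, found in unmyelinated axons and the axon initial segment of immature neurons, went from 83.5, 93.2 and 86.4 CPM to 36.5, 50.7 and 55.9 CPM. It too was lower without overlap, by -0.88 (edgeR adjusted p = 0.00111) and by -0.35 with the offset (edgeR adjusted p = 0.0519). *Scn8a*, the channel of mature nodes of Ranvier and initial segments, was second per length at 25.2 CPM per kb. Its CPM were 238, 349.8 and 276 against 197.6, 203 and 198, lower by -0.53 without overlap (edgeR adjusted p = 0.0129). With the offset it was at 0.01 (edgeR adjusted p = 0.977), and its transcript of 11.4 kb is the longest of the class. *Scn3a*, a mostly embryonic subunit, was lower by -0.67 and lost its call with the offset (-0.12) or without LAG-3+/+ replicate 3. The calls of *Scn1a* and *Scn2a* with the offset were lost without LAG-3+/+ replicate 2 or 3 and, for *Scn1a*, LAG-3-/- replicate 2 or, for *Scn2a*, LAG-3-/- replicate 1.

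*Scn7a*, a sodium-sensing channel also found in Schwann cells, depended on the library with nerve and muscle RNA. It was at 3.89, 4.86 and 4.49 CPM in LAG-3+/+ and at 1.66, 36.3 and 2.80 CPM in LAG-3-/- cord, with the high value in replicate 2. The log2 fold change was 1.64 with all libraries (edgeR adjusted p = 0.402) and -0.97 without that replicate (edgeR adjusted p = 0.0234), which became -0.47 and was not called with the offset (edgeR adjusted p = 0.282). *Cacna1s*, the calcium channel of skeletal muscle, had the same pattern at 0.187, 0.301 and 0.390 CPM against 0.572, 9.08 and 0.951 CPM. Its log2 fold change of 3.61 (edgeR adjusted p = 0.0992) became 1.38 without LAG-3-/- replicate 2 (edgeR adjusted p = 0.0697), at levels under 1 CPM in each remaining library, and without any one LAG-3+/+ replicate it was not called. The skeletal muscle markers of the 5 other libraries summed to 0.859 to 2.29 CPM.

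Sodium channel beta subunits tune gating and bind adhesion proteins. *Scn4b*, which produces resurgent current in fast-firing neurons, ranged from 278 to 458 CPM in LAG-3+/+ and from 284 to 328 CPM in LAG-3-/- libraries, and the groups overlapped (-0.26, edgeR adjusted p = 0.249). *Scn2b* and *Scn3b* differed by -0.17 and -0.05 and were not called. With the Y-linked covariate both were called lower, at -0.61 and -0.65 (edgeR adjusted p = 0.0769 and 0.0155), and neither was with the offset as well.

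Of the 9 calcium channel alpha1 subunits, 4 were called lower and 1 higher, the last being *Cacna1s*. The class median was -0.51, and -0.13 with the offset. With a median transcript of 8.34 kb, the class falls in the 7 to 10 kb bin, where 71.8% of all genes were called lower, at a median of -0.52. *Cacna1d* and *Cacna1c* encode the L-type channels of neurons, of which the former carries persistent inward current in motor neurons. *Cacna1d* was at 33.9, 25.6 and 25.6 CPM in LAG-3+/+ and at 12.8, 15.2 and 16.7 CPM in LAG-3-/- cord. The difference was -0.93 ± 0.15 (SE, edgeR adjusted p = 0.000872), and -0.55 with the offset (edgeR adjusted p = 0.0160). *Cacna1c* was at 42.1, 47.1 and 41.8 CPM against 20.9, 25.8 and 33.9 CPM, lower by -0.70 (edgeR adjusted p = 0.00547) and by -0.42 with the offset (edgeR adjusted p = 0.0362). In both genes the LAG-3-/- libraries all lay below the LAG-3+/+ libraries. *Cacna1a*, the P/Q-type channel of the neuromuscular junction and most central synapses, had the highest alpha1 level per length at 11.6 CPM per kb. It was at 100.9, 116 and 96.4 CPM against 45.2, 62.6 and 84.0 CPM (-0.71, edgeR adjusted p = 0.0197), and with the offset at -0.41 (edgeR adjusted p = 0.0592). That last call was lost with any single library left out except LAG-3-/- replicate 3. *Cacna1b*, the N-type channel, was at 59.7, 60.0 and 52.5 CPM against 24.5, 41.4 and 52.1 CPM. The groups were just apart, but the difference of -0.54 missed the threshold (edgeR adjusted p = 0.114). With the Y-linked covariate it was called lower at -1.34 (edgeR adjusted p = 0.00143), and with the offset as well at -0.75 (edgeR adjusted p = 0.0201). *Cacna1e*, the R-type channel, has the longest transcript of all members at 15.3 kb. It was called lower at -0.44 (edgeR adjusted p = 0.0749), stood at 0.17 with the offset, and lost its call without any one of 4 libraries. The T-type channels, which open at low voltage and support rebound firing, were not called: *Cacna1g* differed by -0.23, *Cacna1h* by -0.08 and *Cacna1i* by -0.51. With the Y-linked covariate all 3 were called lower, at -1.01, -0.52 and -1.20 (edgeR adjusted p = 0.00590, 0.0726 and 0.0102). With the offset added, *Cacna1g* and *Cacna1i* remained called, at -0.59 and -0.72 (edgeR adjusted p = 0.0462 and 0.0677). Over 28 alternative fits *Cacna1i* was called in 8, and *Cacna1g* and *Cacna1h* in 3 each.

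Of the 14 calcium channel accessory subunits, 4 were called lower, *Cacnb4*, *Cacnb2*, *Cacng2* and *Cacna2d3*, and 2 higher, *Cacnb3* and *Cacng8* (backgrounds 23.9% and 23.1% of all genes). The calls of *Cacng2*, *Cacna2d3* and *Cacng8* were each lost in 3 or 4 of the 6 omissions of a library, those of LAG-3-/- replicate 2 included. *Cacnb4*, a cytoplasmic beta subunit that brings alpha1 to the membrane, was at 140.5, 163 and 148 CPM in LAG-3+/+ and at 86.2, 97.2 and 96.4 CPM in LAG-3-/- cord. It was lower by -0.69 ± 0.11 (SE, edgeR adjusted p = 0.000825). Its transcript is 7.87 kb, and with the offset it was at -0.18 (edgeR adjusted p = 0.208). *Cacnb3*, a beta subunit with a transcript of 2.48 kb, moved the other way, from 27.8, 28.8 and 30.2 CPM to 32.9, 39.4 and 46.5 CPM (0.45, edgeR adjusted p = 0.0168), and it was at 0.16 with the offset. *Cacnb2* was the only accessory calcium subunit still called with the offset, at -0.43 (edgeR adjusted p = 0.0488), a call that 4 of the 6 omissions ended (LAG-3+/+ replicates 2 and 3, LAG-3-/- replicates 1 and 2). *Cacng7*, a transmembrane protein that regulates AMPA receptors and the most abundant of the class per length at 48.3 CPM per kb, ranged over 141 to 164 CPM in LAG-3+/+ and 148 to 168 CPM in LAG-3-/- libraries and was not called. The alpha2delta subunits, which include the targets of gabapentin, gave 1 call of 4, *Cacna2d3* at -0.35 (edgeR adjusted p = 0.0671; -0.26 and not called with the offset).

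**Figure D3:**
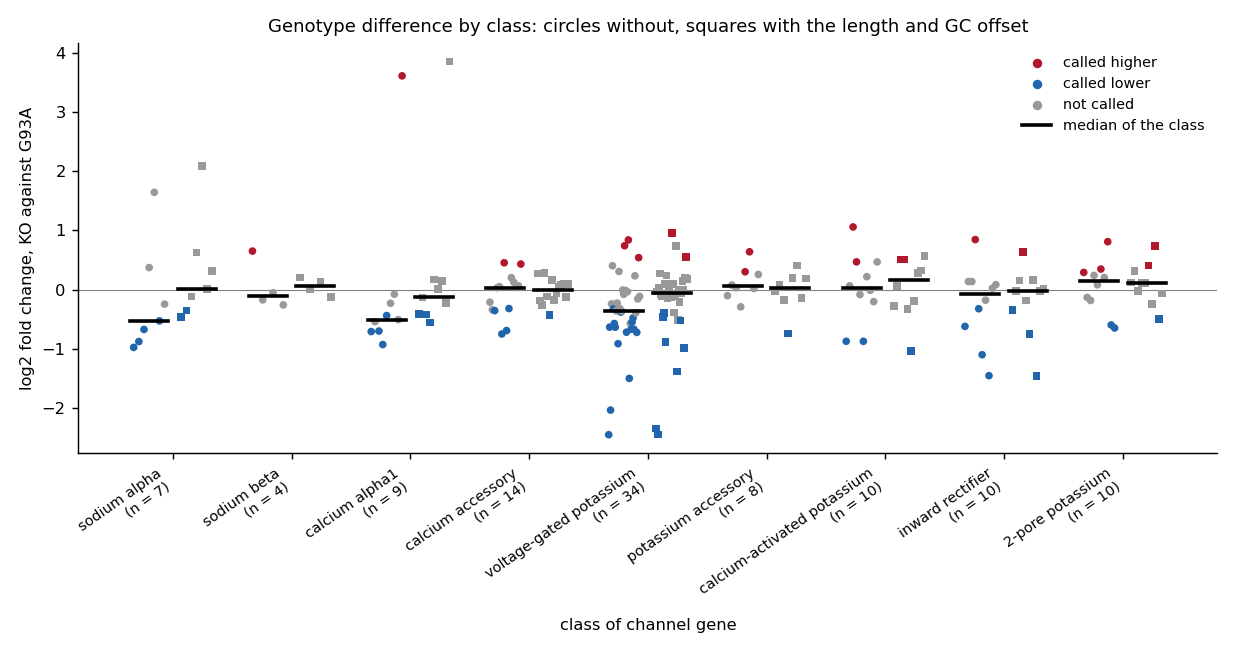
Log2 fold change of every member by class (x axis, with the number of members), without the offset (circles) and with it (squares); colour gives the call and black bars the class medians. The sodium alpha median moves from -0.53 to 0.01 and the calcium alpha1 median from -0.51 to -0.13, while the classes of 2-pore channels and potassium accessory subunits have medians from 0.03 to 0.14 in both fits.

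The voltage-gated potassium channels, which repolarise the membrane, formed the largest class with 34 members, of which 15 were called lower and 3 higher. Their median was -0.36, and -0.06 with the offset, when 8 were lower and 2 higher (backgrounds 13% and 14.5% of all genes). Their median transcript was 4.91 kb. Without the offset 32.3% of all genes of 4 to 5 kb were called lower and 9.04% higher, at a median of -0.17. Among the fast delayed rectifiers of the Kcnc family, which keep spikes narrow in fast-firing neurons, *Kcnc1* stood at 53.6 CPM per kb. It was at 202, 289 and 241 CPM against 158, 185 and 227 CPM. Its groups overlapped, and its difference of -0.36 was not called (edgeR adjusted p = 0.105). With the offset it was called, at -0.39 (edgeR adjusted p = 0.0684). The call with the offset was lost without LAG-3+/+ replicate 2 or 3 or LAG-3-/- replicate 1 or 2. *Kcnc1* was called in 14 of 28 alternative fits, not all of which had the offset. *Kcnc2* and *Kcnc4* were not called, at -0.23 and 0.31. With the Y-linked covariate *Kcnc1* and *Kcnc2* were called lower, at -0.62 and -0.67 (edgeR adjusted p = 0.0977 and 0.0440). Over the 28 alternative fits *Kcnc2* was called in 4 and *Kcnc4* in 7.

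*Kcna1* had the lowest log2 fold change of all members. It encodes a low-threshold delayed rectifier of juxtaparanodes and axon terminals that restrains repetitive firing, and its loss of function causes episodic ataxia. Its CPM were 129, 188 and 152 in LAG-3+/+ and 20.8, 27.9 and 36.9 in LAG-3-/- cord, so the highest LAG-3-/- library was far below the lowest LAG-3+/+ library. The log2 fold change was -2.45 ± 0.22 (SE, edgeR adjusted p = 0.000245), and -2.34 ± 0.21 with the offset (edgeR adjusted p = 0.000535). It stayed between -2.92 and -2.18 in 28 alternative fits. *Kcna1* (minus strand, 126617360 to 126623347 of GRCm39) lies 1.73 Mb from *Lag3* on chromosome 6, in a cluster with *Kcna5* and *Kcna6*. *Kcna5*, at 1.62 Mb, was at 4.49, 4.04 and 4.84 CPM against 4.75, 7.38 and 5.50 CPM and was not called (0.40, edgeR adjusted p = 0.138). *Kcna6*, at 1.80 Mb, was at 114, 141 and 124 CPM against 104.6, 90.4 and 107.5 CPM. The groups did not overlap, and the difference of -0.32 (edgeR adjusted p = 0.0493) was -0.08 with the offset (edgeR adjusted p = 0.631), and its call was lost without LAG-3+/+ replicate 2 or 3 or LAG-3-/- replicate 2. The neighbours of *Kcna1* on either side thus had smaller differences than *Kcna1*.

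Within 2 Mb of *Lag3*, 50 protein-coding genes were tested, of which 12 were called lower and 6 higher with the offset (backgrounds 13% and 14.5% of all genes). By absolute log2 fold change *Kcna1* ranked second among them, after *Lag3* itself, and within 5 or 10 Mb it ranked 4th. *Cacna1c*, 5.71 Mb away on the other side, was called lower (-0.42 with the offset), and *Cacna2d4*, at 5.55 Mb, was not (0.29). *Kcnj8* and *Kcnd2*, at 17.6 and 103 Mb, were at -0.03 and -0.05 with the offset. A targeted allele bred from another strain carries linked sequence, and the effect of the missing LAG-3 and that of sequence linked to the allele cannot be told apart for genes on this part of chromosome 6.

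**Figure D4:**
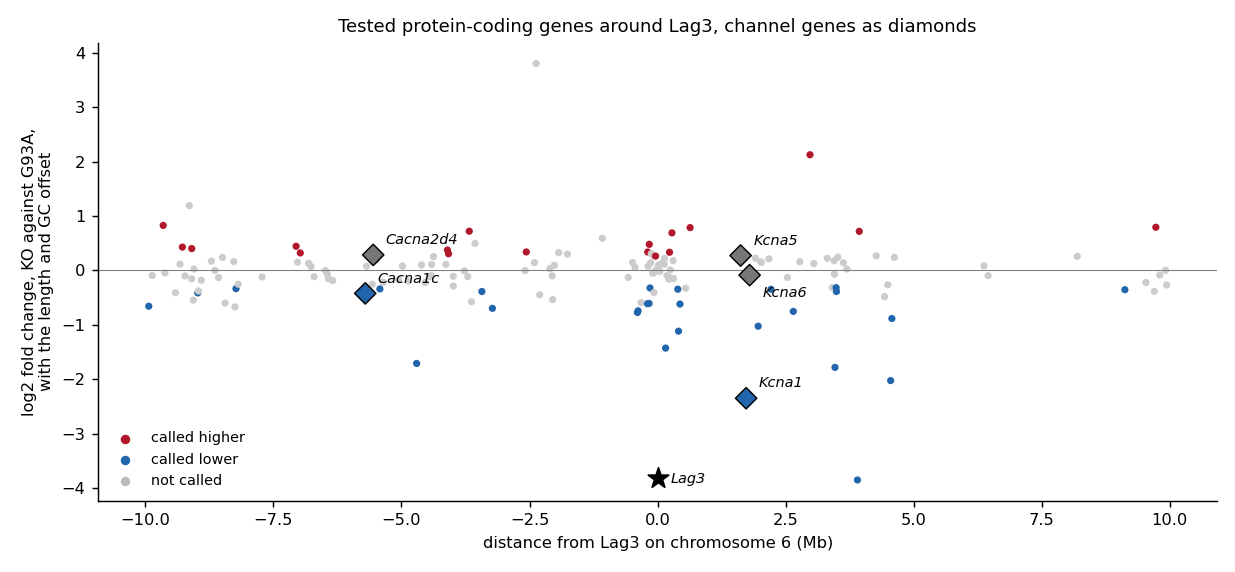
Log2 fold change with the offset (y axis) of tested protein-coding genes against their distance from *Lag3* in Mb (x axis); small points are other genes, diamonds channel genes and the star *Lag3*, coloured by call except for the star. *Kcna1* at 1.73 Mb lies at -2.34, while its neighbours *Kcna5* and *Kcna6* lie at 0.27 and -0.08.

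The other Kcna genes are not on chromosome 6. *Kcna2*, the partner of *Kcna1* in juxtaparanodal channels, was at 361, 516 and 431 CPM in LAG-3+/+ and at 277, 285 and 281 CPM in LAG-3-/- cord (-0.63, edgeR adjusted p = 0.00461). With a transcript of 11.6 kb it was at -0.03 with the offset (edgeR adjusted p = 0.896). *Kcna3*, known mainly from lymphocytes and microglia, was scarce at 4.38, 4.43 and 4.17 CPM and fell to 0.40, 0.789 and 1.95 CPM. Its log2 fold change was -2.04 ± 0.41 (SE, edgeR adjusted p = 0.00398), and -2.45 with the offset (edgeR adjusted p = 0.00496), with a transcript of 1.902 kb. *Kcna4* was not called at -0.24.

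*Kcnq3*, a subunit of the M current that damps excitability, went from 114, 126 and 129 CPM to 69.6, 75.7 and 86.1 CPM, with a difference of -0.67 ± 0.11 (SE, edgeR adjusted p = 0.00112). Its transcript is 11.8 kb, and with the offset it was at -0.06 (edgeR adjusted p = 0.677).

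The Kcnh family of ether-a-go-go channels had 4 members lower and 1 higher of 7 (backgrounds 23.9% and 23.1% of all genes). *Kcnh5* was at 10.1, 11.8 and 11.8 CPM in LAG-3+/+ and at 1.77, 4.62 and 5.40 CPM in LAG-3-/- cord, with no overlap. It was lower by -1.50 ± 0.32 (SE, edgeR adjusted p = 0.00618), and by -1.38 with the offset (edgeR adjusted p = 0.0169). *Kcnh7*, with a transcript of 13.6 kb, was lower by -0.67 (edgeR adjusted p = 0.00719) and at -0.01 with the offset (edgeR adjusted p = 0.987). *Kcnh1* and *Kcnh8* lost their calls likewise, from -0.72 to -0.39 and from -0.55 to -0.21, and that of *Kcnh8* was lost without any library but LAG-3-/- replicate 3. *Kcnh3*, at 0.780 to 0.903 CPM in LAG-3+/+ and 1.14 to 1.85 CPM in LAG-3-/- libraries, was higher by 0.84 (edgeR adjusted p = 0.0494; 0.101 with the offset). Its call was lost without LAG-3+/+ replicate 1 or 3 or LAG-3-/- replicate 2 or 3.

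Silent subunits, which form no channel of their own but modify other delayed rectifiers, numbered 8, of which 2 were called higher and 1 lower (backgrounds 23.1% and 23.9% of all genes). The 5 that were not called lay between -0.16 and -0.01. *Kcng2* was higher, at 3.52, 3.53 and 4.37 CPM against 4.69, 7.10 and 7.26 CPM (0.74, edgeR adjusted p = 0.0172; 0.96 with the offset, edgeR adjusted p = 0.00757). *Kcns3* was higher as well, by 0.54 and 0.55 with the offset (edgeR adjusted p = 0.0334 and 0.0532), and the latter call was lost without LAG-3+/+ replicate 1 or 3 or LAG-3-/- replicate 2. *Kcns1*, at 30.8, 27.8 and 30.2 CPM in LAG-3+/+ and at 22.8, 9.71 and 21.6 CPM in LAG-3-/- cord, was lower with the lowest value in LAG-3-/- replicate 2 (-0.72, edgeR adjusted p = 0.0974), a call that each omission but that of this replicate ended. *Kcnb2*, a delayed rectifier itself, was lower by -0.63 (edgeR adjusted p = 0.00871), and by -0.46 with the offset (edgeR adjusted p = 0.0492; lost without LAG-3+/+ replicate 2 or 3 or LAG-3-/- replicate 1).

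Potassium accessory subunits were called in 2 of 8 cases, both higher (background 23.1% of all genes): *Kcnip2* and *Kcnip1*, of the family of calcium-binding proteins that modulate A-type channels. *Kcnip2* was at 13.0, 13.6 and 12.8 CPM in LAG-3+/+ and at 13.8, 24.4 and 23.0 CPM in LAG-3-/- cord, where replicate 1 stayed close to the LAG-3+/+ range. The difference of 0.64 (edgeR adjusted p = 0.0210) was 0.41 with the offset, without a call. *Kcnip1* was higher by 0.30 (edgeR adjusted p = 0.0667), a call lost without LAG-3+/+ replicate 1 or 2 or LAG-3-/- replicate 2 or 3. *Kcnab2* and *Kcnab3*, cytoplasmic beta subunits of Kcna channels, had the highest levels of the class at 81.7 and 30.1 CPM per kb. *Kcnab2* was at 290.6 to 457 CPM in LAG-3+/+ and 362 to 432 CPM in LAG-3-/- libraries, and *Kcnab3* at 65.4 to 93.9 and 74.2 to 81.2 CPM. Neither was called, with 0.08 and 0.03. *Kcne5*, a small single-pass subunit with the second shortest transcript at 1.54 kb, was at 39.8, 28.3 and 34.1 CPM against 36.7, 22.8 and 24.4 CPM. The groups overlapped (-0.29, edgeR adjusted p = 0.257), and the gene was called lower with the offset (-0.74, edgeR adjusted p = 0.0165). It was called in 15 of 28 alternative fits, not all of which had the offset.

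The calcium-activated potassium channels, which produce the afterhyperpolarisation, had 2 members lower and 2 higher of 10 (backgrounds 23.9% and 23.1% of all genes). *Kcnn3* was the clearest. It was at 34.3, 33.2 and 34.4 CPM in LAG-3+/+ and at 18.8, 16.3 and 20.6 CPM in LAG-3-/- cord, with little spread within either group. The log2 fold change was -0.87 ± 0.11 (SE, edgeR adjusted p = 0.00041), and -1.03 ± 0.10 with the offset (edgeR adjusted p = 0.000397). Its relatives did not follow: *Kcnn2*, the main afterhyperpolarisation channel of motor neurons, was at 18.7, 24.8 and 18.3 CPM against 19.3, 16.1 and 23.0 CPM (-0.08, edgeR adjusted p = 0.715), and *Kcnn1* was higher by 0.47 (edgeR adjusted p = 0.0281) and by 0.51 with the offset (edgeR adjusted p = 0.0284), calls lost without LAG-3-/- replicate 2. *Kcnma1*, the large-conductance channel, was at 78.7, 96.3 and 86.1 CPM against 37.2, 49.5 and 55.7 CPM. It was lower by -0.87 (edgeR adjusted p = 0.00119), and with a transcript of 12.05 kb it was at -0.27 with the offset (edgeR adjusted p = 0.110). Its neuronal accessory subunit *Kcnmb4*, which has the shortest transcript of all members at 1.37 kb, was higher, at 4.53, 5.46 and 5.85 CPM against 11.96, 11.6 and 9.51 CPM. The log2 fold change was 1.06 ± 0.17 (SE, edgeR adjusted p = 0.000902) and 0.51 with the offset (edgeR adjusted p = 0.0495), where the call was lost without LAG-3+/+ replicate 1 or LAG-3-/- replicate 1 or 2. *Kcnt1*, a sodium-activated channel and the most abundant of the class per length at 14.2 CPM per kb, overlapped between groups at 82.9 to 129.5 and 84.2 to 118 CPM (-0.01).

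Among the 10 inward rectifiers 4 were lower and 1 higher (backgrounds 23.9% and 23.1% of all genes). *Kcnj10*, the astrocytic channel that takes up extracellular potassium, was the most abundant member of all at 184.6 CPM per kb. It was at 926, 1005 and 1069.7 CPM in LAG-3+/+ and at 702, 571 and 678 CPM in LAG-3-/- cord, lower by -0.62 ± 0.13 (SE, edgeR adjusted p = 0.00417). With the offset it was at -0.34 (edgeR adjusted p = 0.0918), a call lost without LAG-3+/+ replicate 2 or 3 or LAG-3-/- replicate 2 or 3. *Kcnj16*, with which it forms heteromeric channels in astrocytes, was at 75.5, 81.5 and 83.5 CPM against 69.8, 56.3 and 66.1 CPM (-0.32, edgeR adjusted p = 0.0349), and lost its call with the offset (-0.19) or without LAG-3+/+ replicate 3 or LAG-3-/- replicate 2. In the same libraries 8 astrocyte markers summed to 14439.5 to 16264 CPM in LAG-3+/+ and 9316 to 14166 CPM in LAG-3-/- cord, with 4 called lower and 1 higher (2 and none with the offset), and the part of astrocyte content in the channel values was not tested.

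*Kcnj2*, a strong inward rectifier of muscle, neurons and microglia, was at 39.7, 26.6 and 33.4 CPM in LAG-3+/+ and at 16.8, 13.9 and 15.9 CPM in LAG-3-/- cord, without overlap. It was lower by -1.10 ± 0.15 (SE, edgeR adjusted p = 0.000492) and by -0.75 with the offset (edgeR adjusted p = 0.00901). *Kcnj6*, a G protein-gated channel of neurons, went from 5.50, 8.90 and 6.90 CPM to 1.26, 2.92 and 3.50 CPM (-1.45, edgeR adjusted p = 0.00636; -1.46 with the offset). Its usual partners *Kcnj3* and *Kcnj9* were not called, at -0.18 and 0.08. *Kcnj14*, an inward rectifier found in motor neurons, rose from 5.91, 7.83 and 6.59 CPM to 13.4, 11.4 and 11.8 CPM. Its log2 fold change was 0.85 ± 0.16 (SE, edgeR adjusted p = 0.00195), and 0.64 with the offset (edgeR adjusted p = 0.0167). The 6 motor neuron markers summed to 72.4 to 116.6 CPM in LAG-3+/+ and 116.6 to 180.1 CPM in LAG-3-/- cord, with 3 called higher (2 with the offset), and their part in the value of *Kcnj14* was not tested.

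Of the 10 2-pore potassium channels, which carry background leak current, 3 were higher and 2 lower (23.1% and 23.9% of all genes). *Kcnk3*, an acid-sensitive leak channel of motor neurons, was at 22.3, 29.5 and 26.7 CPM in LAG-3+/+ and at 34.3, 31.5 and 34.0 CPM in LAG-3-/- cord. It was higher by 0.35 (edgeR adjusted p = 0.0411), a call lost without LAG-3+/+ replicate 1 or 3, and by 0.41 with the offset (edgeR adjusted p = 0.0327). Its close relative *Kcnk9* was lower, at 98.6, 141 and 107 CPM against 65.9, 75.6 and 80.0 CPM (-0.65, edgeR adjusted p = 0.00438). *Kcnk9* has the second longest transcript of the members, 13.7 kb, and was at -0.07 with the offset (edgeR adjusted p = 0.758). *Kcnk6* was lower by -0.60 (edgeR adjusted p = 0.0209; lost without LAG-3+/+ replicate 3) and by -0.49 with the offset (edgeR adjusted p = 0.0715; lost without LAG-3+/+ replicate 1 or 3 or LAG-3-/- replicate 2 or 3). *Kcnk1*, the most abundant of the class per length at 30.7 CPM per kb, was higher by 0.29 (edgeR adjusted p = 0.0763; lost without LAG-3+/+ replicate 1 or 3 or LAG-3-/- replicate 1) and not called with the offset. *Kcnk5*, another acid-sensitive channel, was scarce at 1.87, 2.41 and 1.48 CPM against 3.43, 4.22 and 2.40 CPM, and the groups just overlapped. It was higher by 0.81 (edgeR adjusted p = 0.0373) and by 0.73 with the offset (edgeR adjusted p = 0.0890), both lost without LAG-3+/+ replicate 3 or LAG-3-/- replicate 2. *Kcnk13*, a microglial channel linked to inflammasome activation, was at 24.6, 31.4 and 30.8 CPM against 38.6, 30.3 and 33.8 CPM and was not called (0.24, edgeR adjusted p = 0.168). It was called in 2 of 28 alternative fits, that with the Y-linked covariate included (0.49, edgeR adjusted p = 0.0631). *Kcnk4*, with a transcript of 1.71 kb, was not called either (0.20).

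Of the members described here, 8 were called in the same direction in each of 28 alternative fits, which changed the scaling, the filter, the tool, the covariates, the length term or left out a library. These were *Kcna1*, *Kcna3*, *Kcnh5*, *Kcnj6*, *Cacna1d*, *Kcnn3* and *Cacna1c*, all lower, and *Kcnj14*, higher. *Kcnj2* was called lower in 27 of the 28, the exception being the fit with both the Y-linked covariate and the offset. The other lower members described here lost the call in 3 to 19 fits, and *Cacna1e* was called higher in 2 of them. The 7 lower genes of this set have transcripts of 1.902 to 6.93 kb, and no member of 10 kb or more was among them.

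**Figure D5:**
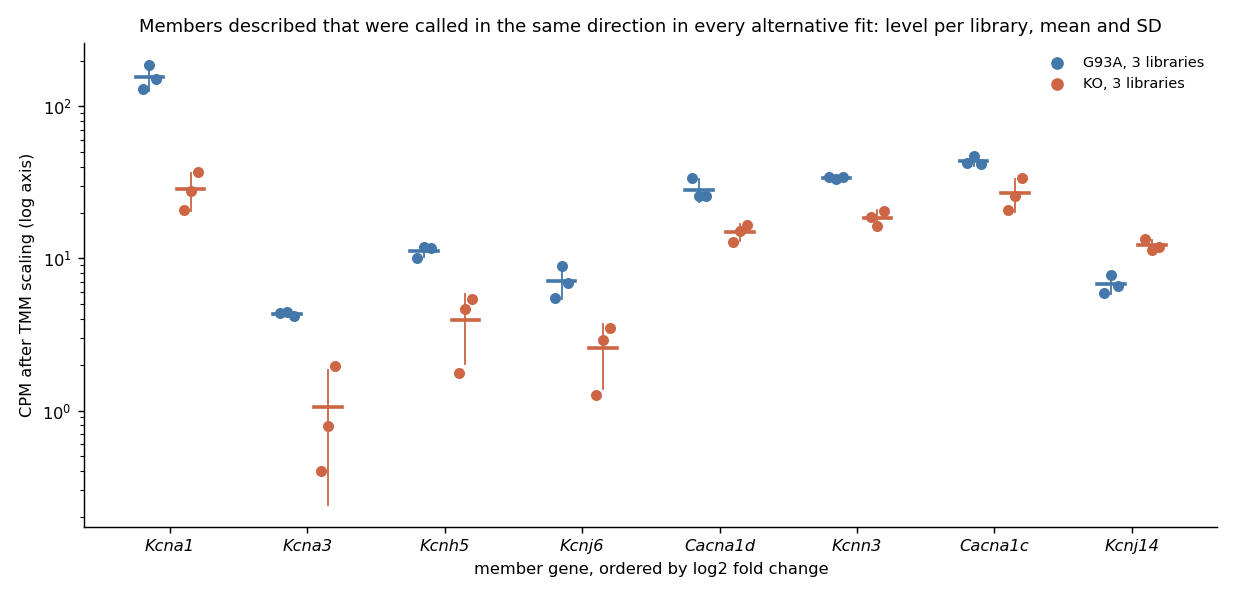
CPM in each library on a log axis for 8 members called in the same direction in each of 28 alternative fits; points are libraries, horizontal bars group means and vertical bars 1 SD (n = 3 per genotype). In each of the 8 genes the 3 LAG-3-/- libraries (orange) lie entirely on one side of the 3 LAG-3+/+ libraries (blue), and *Kcnj14* is the gene in which they lie above.

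Proteins that anchor or assemble these channels were read from a list of 25 genes chosen for that role. Of these 16 were called lower and none higher (backgrounds 23.9% and 23.1% of all genes). With the offset 6 were lower and 3 higher (backgrounds 13% and 14.5%). Many of these genes have long transcripts. Without the offset 71.8% of all genes of 7 to 10 kb and 79.7% of those of 10 kb or more were called lower. *Nrcam* and *Ank3*, the adhesion molecule and the ankyrin that gather sodium channels at the initial segment and the node, were at 319.95 to 368 and 368 to 436 CPM in LAG-3+/+ cord. In LAG-3-/- cord they were at 141 to 179.7 and 199 to 210.3 CPM. Their log2 fold changes were -1.15 and -0.97 (edgeR adjusted p = 0.000254 and 0.000305), and -0.57 and -0.43 with the offset (edgeR adjusted p = 0.00703 and 0.0260). In the other direction the smallest p-values belonged to *Hcn2*, a hyperpolarisation-activated channel (0.30, edgeR adjusted p = 0.15), and *Lgi3*, a secreted partner of Kcna channels (0.19, edgeR adjusted p = 0.227; 0.57 and called with the offset, edgeR adjusted p = 0.00782). The median of the list was -0.49 without and -0.06 with the offset.

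To see which members are measured in microglia, the 12 libraries of sorted CD11b+/CD45int microglia of both genotypes, taken at P120 and P140, were read. *Lag3* was at 24.5 to 62.9 CPM in their LAG-3+/+ and at most 0.462 CPM in their LAG-3-/- libraries. Of the 106 members 33 passed the filter there, 21 reached a mean of 1 CPM and 23 had no count in any library, among which *Kcna1* was listed at 0 throughout. Per length *Kcnk13* was the most abundant at 37.7 CPM per kb, followed by *Kcnj2* at 33.8 and *Kcnk6* at 26.4 CPM per kb. At P140 4 members were called, all higher in LAG-3-/- microglia (backgrounds 7.22% higher and 3% lower). *Kcnj2* was at 67.7, 59.4 and 41.6 CPM in LAG-3+/+ and at 98.2, 270.3 and 347 CPM in LAG-3-/- microglia (log2 fold change 2.09, edgeR adjusted p = 0.0311), the opposite side from its value in whole cord. *Kcnk6* was at 37.1, 26.6 and 15.6 CPM against 51.0, 127 and 103 CPM (1.83, edgeR adjusted p = 0.0389), again opposite to cord, where 9 microglial markers summed to 1275 to 1630.1 CPM in LAG-3+/+ and 937 to 1325 CPM in LAG-3-/- libraries. The difference between the 2 sample types was not tested. The same contrast also called *Kcnd1* (1.37, edgeR adjusted p = 0.0893) and *Kcnab2*, which was listed at 0 in each LAG-3+/+ library and at 1.10 to 1.81 CPM in LAG-3-/- libraries at P140. These calls depended on the fit: none remained in a fit of the P140 libraries alone, without LAG-3-/- replicate 2 or without LAG-3-/- replicate 3, while 7 members were called without LAG-3-/- replicate 1 and 1 without LAG-3+/+ replicate 2. In the P140 libraries alone the log2 fold changes of *Kcnj2* and *Kcnk6* were 2.09 and 1.83 (edgeR adjusted p = 0.207 and 0.212), and DESeq2 gave 1.99 and 1.74 over all 12 libraries (DESeq2 adjusted p = 0.000118 and 0.000785). With the length and GC offset *Kcnj2* stood at 1.19 (edgeR adjusted p = 0.0861) and *Kcnk6* at 1.12 (edgeR adjusted p = 0.106). Neutrophil markers summed to between 0.192 and 3315 CPM in the P140 LAG-3+/+ and between 1.03 and 4140 CPM in the P140 LAG-3-/- libraries, and 8 of the 12 libraries went against their listed sex in X- and Y-linked transcripts. The part of either in these values was not tested.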

How the data were processed

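Estimated counts per Ensembl gene were deposited by the authors, who trimmed reads with Trim Galore 0.6.7, quantified transcripts with Salmon 1.9.0 on GRCm39 and summed them to genes with tximport (R 4.2.1). The annotation release is not given in the sources used here. The study tested such counts with DESeq2 (adjusted p under 0.1 and an absolute log2 fold change above 1), and that tool is an alternative here.

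The counts were rounded and analysed in R 4.3.3. Genes were kept that reached, in 3 libraries, the CPM equal to 10 counts in a library of median size, and had 15 counts in all. They were scaled by TMM factors and tested with the quasi-likelihood test of edgeR 4.0.16. P-values were adjusted over every tested gene by the Benjamini-Hochberg method, with a call at an adjusted p under 0.1. SE denotes the standard error of a log2 fold change, taken as its absolute value divided by the square root of the test's F statistic. It therefore restates the test and is no separate estimate. SD denotes the standard deviation between libraries. CPM (counts scaled to the library total) use the TMM-scaled library size. Levels are compared between genes only as CPM per kb of canonical transcript, from GENCODE vM39, in which 71 identifiers with 0.0145% of cord counts were absent. The offset was a natural spline with 5 degrees of freedom each for transcript length and GC content. It was fitted per library to log2 CPM (prior count of 2) less the gene's mean over libraries, with the most extreme deviations left out. The 12 microglia libraries were fitted together with 4 groups.

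The members and gene lists were chosen with earlier results of these data known. Members named with values were those with the smallest adjusted p in each direction, the highest level per length in each class, the longest and shortest transcripts, calls ended or made by the offset, a short list of well-studied channels, and the smallest p-values of the partner list. Other members, among them *Kcna3*, *Kcnh5*, *Kcnj6*, *Cacna1c*, *Cacna1s* and *Scn7a*, were named after their values were seen. With 3 libraries against 3, an exact permutation test of a single gene cannot go below p = 0.1, so no such test was used. Some members are not reported here by name, although the counts and medians over all members include them. Scripts were tested on simulated data.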

Additional observations from a re-analysis of the deposited data

How the results depend on the processing

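Alternatives of scaling, filter, tool, covariate, length term and libraries were computed for the counts and medians and for each gene named by the rule. The fits with the Y-linked covariate and the quadratic length term were chosen after seeing the data. Of the values for named genes under alternatives, 890 kept direction and side of the threshold, 60 gained a call, 174 lost one and 108 changed sign. The cause of these shifts was not tested.

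CPM without TMM factors moved the median of all genes to -0.13 and left 8 members higher and 41 lower, beside 2928 higher and 5316 lower genes. DESeq2 and limma-voom each gave 14 higher and 37 lower members. Genes numbered 3847 higher and 3997 lower with DESeq2, and 4078 and 4286 with limma-voom. The length and GC offset gave 7 higher and 20 lower members, 2558 higher and 2299 lower genes and a pore-forming median of -0.025. The length offset alone gave 19 lower members, 2433 lower genes and medians of 0.026 over members and -0.018 over pore-forming subunits. Union length gave 8 higher members. The quadratic length term gave 18 lower members, 2465 higher and 2257 lower genes and medians of 0.035 and 0.021. The Y-linked covariate gave 6 higher members, 23 members called beyond 1, and medians of -0.42 and -0.50. With the offset as well it gave 2 higher and 17 lower members, 4 beyond 1, 1697 higher and 903 lower genes and an accessory median of -0.17. In microglia 0 members were called by edgeR within P140 alone (6 at an unadjusted p under 0.05 in the fit of all libraries, where DESeq2 called 6), 2 with the offset and 2 with the replicate block.

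The replicate numbers did not pair the cord libraries (r of same-numbered deviations 0.02, 0.01 and -0.03). The replicate block gave 16 higher and 41 lower members, beside 4019 higher and 4296 lower genes. With the offset it gave 9 and 22 members, 2544 higher and 2392 lower genes and a pore-forming median of -0.028.

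With each library left out in turn, members called higher ranged from 9 to 17 (4 to 11 with the offset), lower from 24 to 42 (10 to 21) and beyond 1 from 6 to 11 (5 to 7). Genes called higher ranged from 3176 to 4015 (1555 to 2432) and lower from 3209 to 4467 (1167 to 2078). Medians ranged from -0.26 to -0.080 over members (-0.10 to 0.092), -0.39 to -0.15 over pore-forming (-0.11 to 0.074) and -0.052 to 0.096 over accessory subunits (-0.058 to 0.15). Microglial calls ranged from 0 to 7.

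Changes of sign by setting were as follows, as log2 fold changes. With CPM without TMM factors, *Cacng7* was at -0.062, *Kcnab2* at -0.041 and *Kcnab3* at -0.092. With the Y-linked covariate, *Kcnab2* was at -0.00038, *Kcne5* at 0.13, *Kcnip2* at -0.025 and *Kcnk4* at -0.00058. With the Y-linked covariate and offset, *Cacnb3* was at -0.14, *Cacng7* at -0.030, *Kcna2* at 0.16, *Kcnab3* at -0.20, *Kcnh7* at 0.18, *Kcnip2* at -0.29, *Kcnk4* at -0.49, *Kcnt1* at 0.039 and *Scn8a* at 0.22. With no filter on low counts, *Kcnab3* was at -0.0038. With the quadratic length term, *Cacna1e* was at 0.31, *Cacna1g* at 0.20, *Kcnab3* at -0.086, *Kcnh7* at 0.042, *Kcnk4* at -0.084, *Kcnk9* at 0.057, *Kcnt1* at 0.36 and *Scn8a* at 0.089. With the replicate block, *Kcnt1* was at 0.0020. With the replicate block and offset, *Cacna1e* was at 0.15, *Cacng7* at -0.13, *Kcnab3* at -0.15, *Kcnh7* at 0.0044, *Kcnk4* at -0.24, *Kcnt1* at 0.30 and *Scn8a* at 0.020. With the length and GC offset, *Cacna1e* was at 0.17, *Cacna1g* at 0.0056, *Cacng7* at -0.13, *Kcnab3* at -0.17, *Kcnk4* at -0.25, *Kcnt1* at 0.28 and *Scn8a* at 0.0079. With the length offset, *Cacna1e* was at 0.17, *Cacna1g* at 0.21, *Kcnab3* at -0.099, *Kcnk4* at -0.091, *Kcnt1* at 0.38 and *Scn8a* at 0.035. With union length and GC, *Cacna1e* was at 0.022, *Cacng7* at -0.23, *Hcn2* at -0.087, *Kcnab3* at -0.25, *Kcnk1* at -0.0061, *Kcnk4* at -0.036, *Kcnn2* at 0.14 and *Kcnt1* at 0.12. With upper-quartile factors, *Kcnt1* was at 0.044. With a library left out, with or without the offset, the genes that changed sign ranged as follows: *Cacna1b* from -0.81 to 0.066, *Cacna1e* from -0.63 to 0.32, *Cacna1g* from -0.53 to 0.19, *Cacng7* from -0.19 to 0.12, *Hcn2* from -0.0045 to 0.44, *Kcna2* from -0.76 to 0.10, *Kcnab2* from -0.080 to 0.25 and *Kcnab3* from -0.29 to 0.20. The others ranged as *Kcnh7* from -0.81 to 0.17, *Kcnk13* from -0.0068 to 0.32, *Kcnk4* from -0.37 to 0.41, *Kcnk9* from -0.76 to 0.10, *Kcnn2* from -0.50 to 0.067, *Kcnt1* from -0.16 to 0.48, *Scn4b* from -0.43 to 0.058 and *Scn8a* from -0.65 to 0.17.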
